A study of Mus musculus with 6 samples.

Results

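The ligands, receptors and regulators of transforming growth factor beta (TGF-β) and activin signalling were described in mouse osteocytes with and without estrogen receptor alpha (ERα), the estrogen receptor encoded by Esr1. The group was chosen by name and holds 9 genes, which are Tgfb1, Tgfb2, Tgfb3, Tgfbr1, Tgfbr2, Tgfbr3, Inhba, Inhbb and Fst. It took in every probe set that the platform annotation assigned to exactly 1 of these genes, 21 of the 45101 probe sets on the array, in a table that named 18193 genes. All 9 genes passed the filter on low values with their highest probe set, as did 15 of the 21 probe sets. The remaining 6 probe sets lay below it and were given values but no test.

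The ERaKO group consisted of 3 arrays from mice lacking ERα specifically in osteocytes, and the control group of 3 arrays from littermates labelled wild type. The extraction protocol names ERα flox/flox mice, so the controls may carry floxed alleles. The driver of Cre, and whether controls carried Cre, are not stated in the labels. All mice were C57/BL6 females of 10 to 12 days and carried Dmp1-GFP, a green fluorescent marker under the promoter of the osteocyte matrix gene Dmp1. Calvarial cells of digestion fractions 4 to 6 were sorted for the marker after the sutures had been cut away, through a gate set to hold 10% to 15% of cells. Each array read total RNA with biotin label on an Affymetrix GeneChip. The design text gives 3 mice of each genotype and no pooling of RNA, and the protocol speaks of pooled calvarial tissue, so the p-values measure the spread between these arrays, which may not be that between mice.

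TGF-β ligands are secreted in a latent form, stored in bone matrix, and released by integrins and proteases. The active ligand binds the type II receptor, encoded by Tgfbr2, which phosphorylates the type I receptor, encoded by Tgfbr1, and the signal passes to Smad2 and Smad3. Betaglycan, encoded by Tgfbr3, is a co-receptor that presents ligand, above all TGF-β2, and also binds inhibin. Activins are dimers of the chains encoded by Inhba and Inhbb that use their own receptors and the same Smads, and follistatin, encoded by Fst, binds and neutralises them. In bone these factors take part in the coupling of resorption to formation, and TGF-β acts on the perilacunar remodelling carried out by osteocytes.

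Values are log2(signal + 16) after quantile normalisation, so a level has no absolute unit and a difference of 1 is a doubling that is understated for dim probe sets. A difference is ERaKO minus control. On the deposited scale the array medians were 20.2 to 28.6 in ERaKO arrays and 18.7 to 22.7 in control arrays. Of the 14 osteocyte markers 12 were tested, of which 5 lay above 0 and 7 below. Groups were apart for 2 as lower, against 7.76% of all genes, and for 0 as higher, against 9.23%. The list level was -0.064 to 0.036 in ERaKO arrays and -0.21 to 0.28 in control arrays. The markers of highest signal were Dmp1, with a level of 12.55 ± 0.14 in ERaKO and 12.85 ± 0.16 in control arrays, and Phex, with 10.94 ± 0.05 in ERaKO and 10.96 ± 0.07 in control arrays (SD, n = 3 each). The 2 with groups apart were Dkk1, which encodes a Wnt inhibitor, at -0.70, and Ptprz1 at -0.21, while Mepe stood at 0.45 and Hyou1 at 0.35 with overlapping groups. Fgf23 lay under the level filter. Esr1 itself had 3 probe sets, which differed by -0.20 ± 0.13, -0.13 ± 0.21 and, under the filter, -0.86 ± 0.14 (SE). The exact permutation test of the last, 2-sided, gave p = 0.1, the smallest that 3 arrays against 3 allow. The labels do not name the deleted part of Esr1, so these values do not check the labels. Control replicate 2 stood apart in skeletal muscle, pericyte and fibroblast genes, and control replicate 1 in macrophage and osteoclast genes, where it was the lowest array. The muscle genes' mean centred level was -0.63 to 0.80 in ERaKO arrays, against 1.83 to 1.86 in control replicates 1 and 3 and -3.32 in control replicate 2.

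Tgfb2 showed the largest difference among the 9 genes, with 1.42-fold more signal in ERaKO arrays, and follistatin was next with 1.27-fold. For these 2 genes all 3 ERaKO arrays lay above all 3 control arrays, while the groups overlapped for the other 7. Tgfb3, Tgfb1, Tgfbr2 and Inhbb had ERaKO means above control by 0.19 to 0.28, while Tgfbr1, Inhba and Tgfbr3 lay slightly below 0, and above 0 with the deposited scaling. In all 6 of 9 members were above 0, as were 48.3% of all genes. No member passed the threshold, an adjusted p under 0.05 over all 10916 genes tested with limma. The same fit called 0 of all genes higher and 0 lower (0% of those tested in each direction), with 0.120 as its smallest adjusted p. Counted at an unadjusted p under 0.05, 2 of 9 members were higher, against 5.85% of all genes, and 0 were lower, against 4.69%. Groups did not overlap for 2 of 9 members as higher, against 9.23% of all genes, and for 0 as lower, against 7.76%. The median difference was 0.27 over the 9 members, or 0.17 without ERaKO replicate 1, and -0.01 over all genes tested. Fewer cells of a type and less RNA per cell cannot be told apart in these sorted bulk samples.

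The promoters of Tgfb2 and Tgfb1 are shown because the probe sets of the first ligand lay the same way and those of the second did not. The windows are from RefSeq on GRCm38.p6, run 5′ to 3′ on the strand of the gene from 250 bases before to 50 bases after an annotated start, and carry searched motifs in capitals. The Tgfb2 window is chr1:186705940-186706239 on the minus strand, and its start lies 3708 bases inside the outer end of the gene. The Tgfb1 window is chr7:25686752-25687051 on the plus strand, at the outer end of the gene.
Tgfb2: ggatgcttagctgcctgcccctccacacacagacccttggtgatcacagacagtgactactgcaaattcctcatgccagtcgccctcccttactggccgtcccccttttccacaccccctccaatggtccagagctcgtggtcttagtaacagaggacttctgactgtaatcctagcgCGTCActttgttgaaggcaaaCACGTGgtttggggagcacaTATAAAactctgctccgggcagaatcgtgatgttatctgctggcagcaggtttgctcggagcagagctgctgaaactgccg
Tgfb1: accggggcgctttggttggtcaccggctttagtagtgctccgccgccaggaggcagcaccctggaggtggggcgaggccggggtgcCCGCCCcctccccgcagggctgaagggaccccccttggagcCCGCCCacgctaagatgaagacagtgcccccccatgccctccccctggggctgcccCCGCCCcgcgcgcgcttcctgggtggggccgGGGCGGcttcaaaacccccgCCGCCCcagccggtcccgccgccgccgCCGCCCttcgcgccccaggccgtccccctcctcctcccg
Both strands were searched for TATAAA, the E-box CACGTG, the GC box GGGCGG, the core TGACG of cyclic AMP response elements, and 2 overlapping forms of the estrogen response element, the half-site AGGTCA and the palindrome of GGTCA, any 3 bases and TGACC. The Tgfb2 window held TATAAA from position -31 relative to the start, CACGTG from position -51, and TGACG on the opposite strand from position -72. Of 32851 windows of this length, 13.6% held TATAAA, 7.15% CACGTG and 20.8% TGACG. The Tgfb1 window held none of these and 6 GC boxes, 5 of them on the opposite strand, where 35.7% of all windows held at least 1. Its bases were 77.0% G or C, against 54.3% in the Tgfb2 window and a median of 52.7% over all windows. A window was found for 6 of the 9 genes, 7 windows in all. TATAAA also stood in the window of Inhba, and GC boxes in those of Inhbb and the outer start of Tgfbr1. Neither form of the estrogen response element was among the letters of these 7 windows, where 16.3% of all windows held the half-site and 0.07% the palindrome. A match is a description of letters, and no match says nothing of binding.

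Among the ligands, Tgfb2, encoding the isoform that depends most on betaglycan, lies on chromosome 1 from 186622787 to 186709697 (GRCm38.p6). Its probe set with the highest mean had levels of 8.69, 8.72 and 8.59 in ERaKO replicates 1, 2 and 3, against 8.30, 7.82 and 8.36 in control replicates 1, 2 and 3. The ERaKO arrays stood close together, and control replicate 2 was the lowest. The difference was 0.51 ± 0.15 (SE, 95% interval 0.15 to 0.87, limma adjusted p = 0.367). It was 0.34 without control replicate 2, and 0.48 to 0.62 with any other single array left out. Across the 16 alternatives the unadjusted p stayed under 0.05 in all 16, and the adjusted p lay between 0.150 and 0.744.

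Tgfb2 was read by 4 probe sets, and in all 4 the ERaKO mean lay above the control mean. Probe set 2 had 8.17, 8.10 and 7.83 in ERaKO arrays, against 7.39, 7.56 and 7.51 in control arrays. Its difference of 0.55 ± 0.13 (SE, limma adjusted p = 0.235 over 26463 probe sets) came with control replicate 2 as the highest control, unlike in probe set 1. Probe set 4 had 6.60, 6.74 and 6.54 in ERaKO arrays, against 5.99, 5.64 and 6.32 in control arrays, a difference of 0.64 ± 0.18 (SE, limma adjusted p = 0.295). Probe set 3 had 7.51, 7.47 and 6.87 in ERaKO arrays, against 6.81, 7.22 and 6.52 in control arrays, and here the groups overlapped at 0.43 ± 0.23 (SE, limma adjusted p = 0.538), or 0.27 without control replicate 3. The separation of groups therefore held in 3 of the 4 readings of this transcript, and the order of the control arrays differed between them. The 4 probe sets read the same RNA samples and are not replicates. Without control replicate 2, probe set 4 differed by 0.47.

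**Figure D1:**
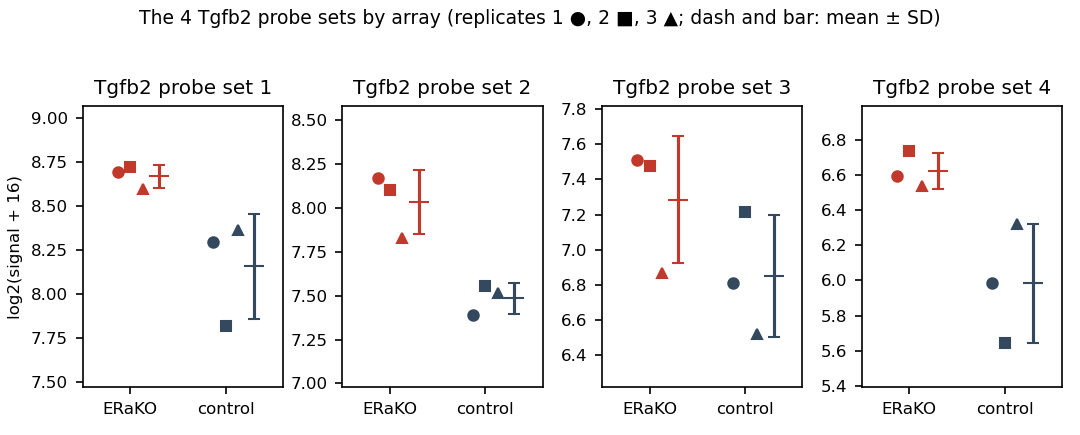
Log2(signal + 16) of the 4 Tgfb2 probe sets on each array, ERaKO left and control right, with the mean and SD of 3 arrays beside the points; each panel spans the same 1.6 log2 units. The 3 ERaKO points lie above the 3 control points in probe sets 1, 2 and 4, and overlap them in probe set 3.

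Tgfb1, encoding the isoform most abundant in bone matrix, lies on chromosome 7 from 25687002 to 25705077. Its first probe set had 7.45, 6.87 and 7.06 in ERaKO arrays, against 6.75, 7.37 and 6.41 in control arrays. Control replicate 2 lay within the range of the ERaKO arrays, and the difference was 0.28 ± 0.26 (SE, 95% interval -0.32 to 0.88, limma adjusted p = 0.741). It was 0.54 without control replicate 2, 0.12 without ERaKO replicate 1 and 0.061 without control replicate 3. The second probe set ran the other way, with 5.50, 5.64 and 5.20 in ERaKO arrays, against 5.73, 6.34 and 5.66 in control arrays. Here all ERaKO arrays lay below all controls, at -0.47 ± 0.21 (SE, limma adjusted p = 0.491), and at -0.26 without control replicate 2. The mean of both gave -0.094, so the arrays settle no direction for Tgfb1.

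Tgfb3, encoding the remaining isoform, known for palate closure, lies on chromosome 12 from 86056743 to 86079041 and had a single probe set. Its levels were 9.001, 9.09 and 9.20 in ERaKO arrays, against 8.68, 8.66 and 9.10 in control arrays. Control replicate 3 reached into the ERaKO range, and the difference was 0.28 ± 0.14 (SE, 95% interval -0.04 to 0.60, limma adjusted p = 0.516). Without control replicate 3 it was 0.42, and without control replicate 2 it was 0.21.

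Of the receptors, Tgfbr2, on chromosome 9 from 116087695 to 116175363, encodes the ligand-binding type II kinase. It had 10.22, 10.08 and 10.05 in ERaKO arrays, against 9.67, 9.78 and 10.08 in control arrays. Control replicate 3 again lay among the ERaKO arrays. The difference was 0.27 ± 0.12 (SE, 95% interval -0.01 to 0.56, limma adjusted p = 0.489), with 0.18 without control replicate 1 and 0.39 without control replicate 3. The other 2 probe sets lay under the filter and ran the other way, at -0.26 ± 0.20 and -0.15 ± 0.19 (SE). With these dim probe sets averaged in, Tgfbr2 stood at -0.045.

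Tgfbr1, on chromosome 4 from 47353222 to 47414926, encodes the type I kinase that phosphorylates Smad2 and Smad3. Its levels were 9.83, 9.58 and 9.77 in ERaKO arrays, against 9.76, 9.88 and 9.63 in control arrays, and the groups were interleaved. The difference was -0.030 ± 0.11 (SE, 95% interval -0.28 to 0.22, limma adjusted p = 0.942). With the scaling as deposited it was 0.14, where the median of all genes was also 0.14. Its other 2 probe sets, under the filter, differed by -0.02 ± 0.16 and 0.12 ± 0.15 (SE).

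Tgfbr3, on chromosome 5 from 107106567 to 107289629, had 8.46, 8.60 and 8.44 in ERaKO arrays, against 8.45, 8.55 and 8.76 in control arrays. Only control replicate 3 lay outside the ERaKO range, and the difference was -0.089 ± 0.11 (SE, 95% interval -0.35 to 0.17, limma adjusted p = 0.815). It was -0.16 without control replicate 1 and -0.0014 without control replicate 3. With the deposited scaling it was 0.058, against a median of 0.14 over all genes. The dim second probe set stood at -0.17 ± 0.19 (SE). The interval of Tgfbr2 reached up to 0.56, while those of Tgfbr1 and Tgfbr3 ended at 0.22 and 0.17. Differences between the receptors were not tested.

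**Figure D2:**
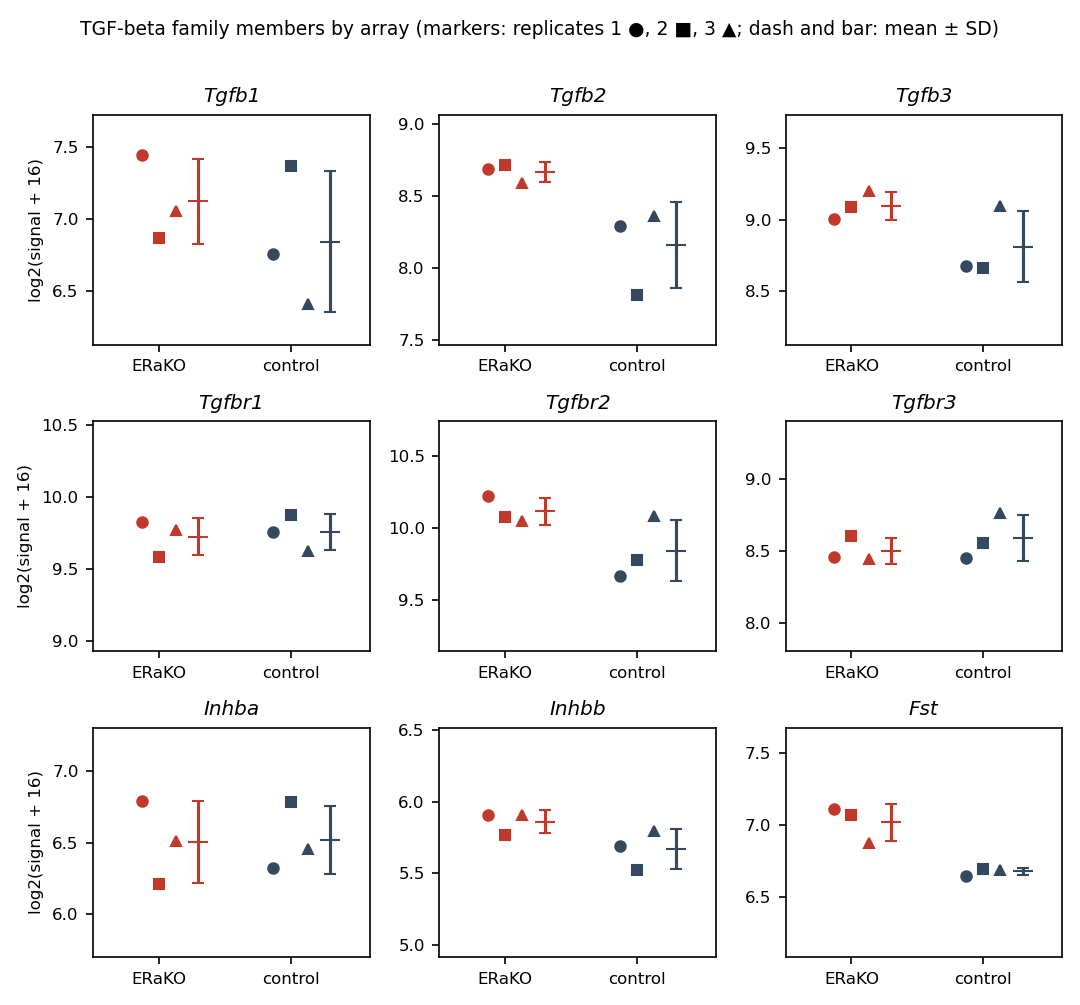
Log2(signal + 16) of the 9 genes on each array by the probe set with the highest mean, ERaKO left and control right, with the mean and SD of 3 arrays beside the points; each panel spans the same 1.6 log2 units. Groups are apart in Tgfb2 and Fst and overlap in the other 7 genes.

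The activin chains did not separate the groups. Inhba, which encodes the chain of activin A, lies on chromosome 13 from 16004256 to 16031609. It had 6.79, 6.21 and 6.51 in ERaKO arrays, against 6.32, 6.78 and 6.46 in control arrays, so each group spread over more than the gap between them. The difference was -0.015 ± 0.19 (SE, 95% interval -0.45 to 0.42, limma adjusted p = 0.987), and 0.13 with the deposited scaling, where all genes had a median of 0.14. A second probe set under the filter differed by -0.07 ± 0.15 (SE).

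Inhbb, encoding the chain of activin B on chromosome 1 from 119415463 to 119422248, had 5.91, 5.77 and 5.90 in ERaKO arrays, against 5.69, 5.52 and 5.80 in control arrays. ERaKO replicate 2 lay just below control replicate 3. The difference was 0.19 ± 0.14 (SE, 95% interval -0.13 to 0.51, limma adjusted p = 0.662), and 0.11 ± 0.16 (SE) by its second probe set. Without control replicate 2 these were 0.12 and 0.025. Both readings sat near the level filter of 5.37 for genes, where a fold is understated.

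Follistatin was the second gene with separated groups. Fst, on chromosome 13 from 114452262 to 114458989, had 7.11, 7.07 and 6.87 in ERaKO arrays, against 6.64, 6.69 and 6.69 in control arrays. The controls lay close together, and the lowest ERaKO array was replicate 3. The difference was 0.34 ± 0.11 (SE, 95% interval 0.08 to 0.60, limma adjusted p = 0.389), and it kept between 0.29 and 0.41 with any 1 array left out. The second probe set differed by -0.15 ± 0.18 (SE, limma adjusted p = 0.816), with 5.60, 5.13 and 5.13 in ERaKO arrays, against 5.57, 5.25 and 5.48 in control arrays. There the groups overlapped, and the mean of both probe sets gave 0.096. The call of Fst at an unadjusted p under 0.05 was lost with that mean, and without ERaKO replicate 1 or 2.

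Over the 15 probe sets above the filter, 10 lay above 0 and 5 below, where 49.7% of all probe sets tested lay above 0. At an unadjusted p under 0.05, 4 were higher, 3 of Tgfb2 and 1 of Fst, against 6.23% of all 26463 probe sets tested, and 0 were lower, against 4.33%. By limma 0 of the 15 passed an adjusted p of 0.05, as did 0% of all probe sets in each direction. Groups did not overlap for the same 4 as higher, against 9.36% of all, and for 1 as lower, against 7.3%. The last was the second probe set of Tgfb1. Of the genes with more than 1 probe set above the filter, which were Tgfb1, Tgfb2, Inhbb and Fst, only Tgfb2 had more than 1 that separated the groups in the same direction. The patterns of 2 probe sets of a gene over the 6 arrays correlated at r = 0.27 to 0.97 for Tgfb2, 0.19 for Tgfb1, 0.36 for Inhbb and -0.18 for Fst, as a description in which the points share their libraries.

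**Figure D3:**
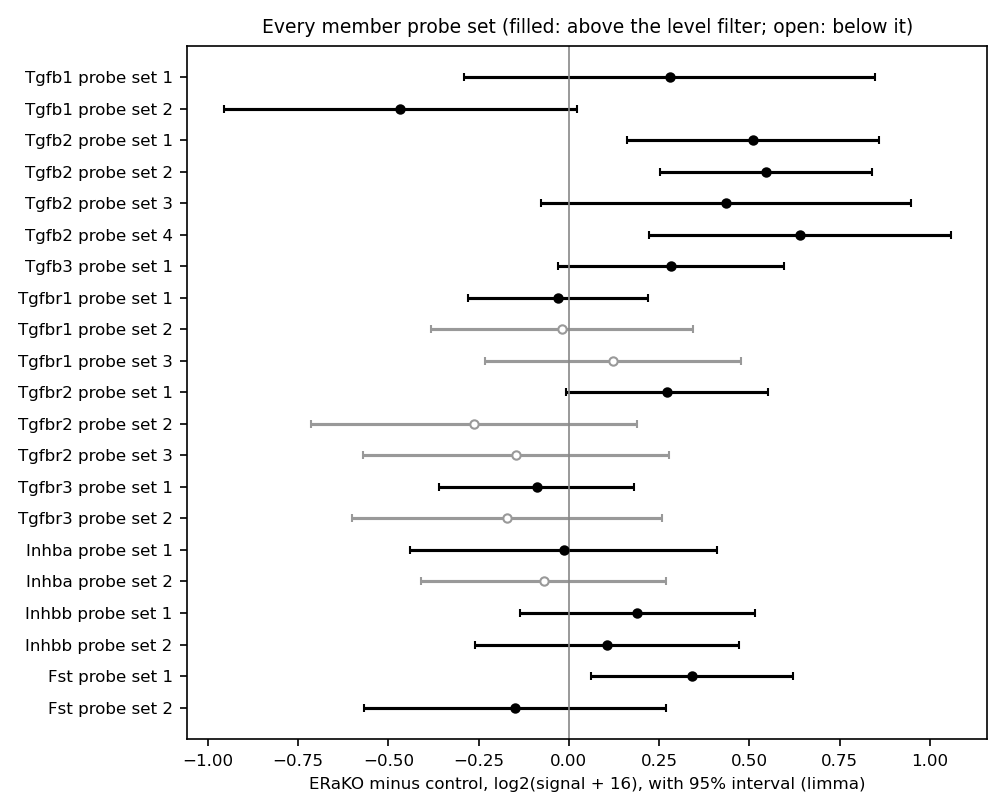
ERaKO minus control on the log2(signal + 16) scale for all 21 member probe sets, numbered by mean within a gene, as points with limma's 95% interval. Tgfb2 probe sets 1, 2 and 4 and Fst probe set 1 have intervals above 0, while the second probe sets of Tgfb1 and Fst lie below 0 with intervals that include it.

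Leaving out single arrays moved the members unequally. Tgfb2, Tgfb3, Tgfbr2, Inhbb, Fst and Tgfb1 stayed above 0 without each of the 6 arrays in turn, and Tgfbr3 stayed below, at -0.0014 without control replicate 3. Tgfbr1 and Inhba were above 0 without ERaKO replicate 2 (0.043 and 0.13) and without control replicate 2 (0.032 and 0.12). The number of members higher at an unadjusted p under 0.05 was 4 without control replicate 3, when Tgfb3 and Tgfbr2 joined Tgfb2 and Fst. It was 3 without control replicate 2, with Tgfb1 added, and 1 without ERaKO replicate 1 or 2, where only Tgfb2 was left.

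**Figure D4:**
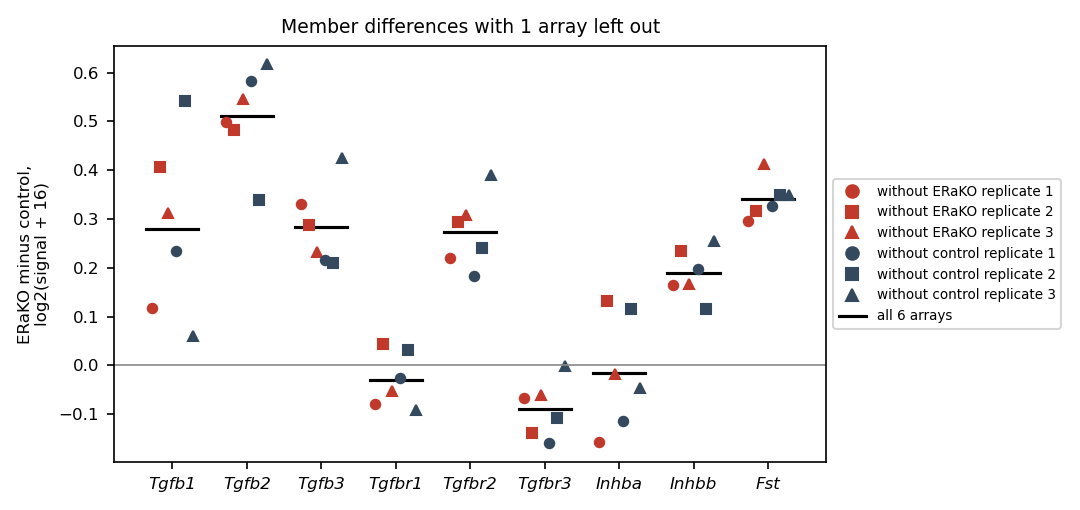
ERaKO minus control on the log2(signal + 16) scale for each gene with all 6 arrays (black dash) and without each array in turn (red markers for an ERaKO array left out, blue for a control array, shaped by replicate). Tgfb1 spreads from 0.061 to 0.54, Fst from 0.29 to 0.41, and Tgfb2 is lowest, at 0.34, without control replicate 2.

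Markers of other cell types that the sort could hold were read beside these members. Of these lists only the cartilage genes had levels that did not overlap between the groups, and 0 genes of any list passed the threshold in limma. Cartilage genes, of which 12 of 14 were higher and 2 lower, had a mean centred level of 0.069 to 0.86 in ERaKO arrays and -0.85 to -0.21 in control arrays, with Col11a1 and Col11a2 as their highest signals. Those 2 genes were the exceptions, at -0.05 and -0.41. The median difference of the list was 1.33, with Cnmd farthest above 0 at 2.23. At an unadjusted p under 0.05, 10 were higher, against 5.85% of all genes, and 1 lower, against 4.69%. Groups were apart for 10 as higher, against 9.23% of all genes, and for 1 as lower, against 7.76%. Pericyte and smooth muscle genes, 1 of 10 higher, had -0.23 to -0.16 in ERaKO arrays, against 0.43 and 0.63 in control replicates 1 and 3 and -0.45 in control replicate 2, with Rgs5 and Acta2 highest, and Rgs5 lay below control on every ERaKO array, at -0.59. Fibroblast and suture genes, 2 of 9 higher, led by Dcn and Prrx1, had -0.24 to -0.093 in ERaKO arrays, against 0.74 and 0.51 in control replicates 1 and 3 and -0.72 in control replicate 2. Their median difference was -1.23 without control replicate 2 and 0.016 without control replicate 1. Macrophage and osteoclast genes, led by Ctsk and Csf1r, were higher in 5 of 10 and had -0.22 to 0.27 in ERaKO arrays. Control replicate 1 stood at -0.93, against 0.37 and 0.24 in control replicates 2 and 3. Endothelial genes, with Esam and Emcn as their highest signals, were higher in 6 of 9. Their level was -0.17 to 0.17 in ERaKO arrays, against -0.18 to 0.23 in control arrays. Among those tested, groups were apart for Cdh5 as higher, at 0.47, and for Esam as lower, at -0.69. Skeletal muscle genes, led by Tpm2 and Myl1, were higher in 5 of 12. Osteoblast genes, led by Sparc and Col1a2, were higher in 4 of 10 and had -0.044 to 0.015 in ERaKO arrays, against -0.030 to 0.026 in control arrays. No listed marker was at a signal of 0 on any array. The summed deposited signal of the 14 cartilage genes was 9967.1 to 12587.5 in ERaKO arrays and 6140.4 to 8707.8 in control arrays. TGF-β ligands are also made by cartilage and mural cells, and the part of these cells in the values of Tgfb2 and Fst was not tested.

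The rest of the pathway was read through lists chosen by function, with earlier results of these data known. Their counts are therefore descriptions and not tests. Ltbp2, Smad7, Skil, Pmepa1 and Mmp14 each stand on 2 of these lists. Others are also on the cell type lists above, so their values are the same readings. These are Mmp9 and Itgb3 (macrophage and osteoclast), Acta2 and Tagln (pericyte and smooth muscle), Dcn (fibroblast and suture), and Col1a1 and Col1a2 (osteoblast). Of the TGF-β response genes, 21 of 32 tested lay above 0 and 11 below, and the median was 0.095. In limma 0 passed the threshold. At an unadjusted p under 0.05, 6 were higher, against 5.85% of all genes, and 0 lower, against 4.69%. Groups were apart for 8 as higher, against 9.23% of all genes, and for 0 as lower, against 7.76%. Klf10, an early target that encodes a zinc finger repressor, had 9.64, 9.34 and 9.27 in ERaKO arrays, against 8.25, 8.96 and 8.63 in control arrays (0.80 ± 0.19, SE, limma adjusted p = 0.285). Bhlhe40, a transcription factor of the clock and stress responses, had 10.13, 9.94 and 9.75 in ERaKO arrays, against 8.89, 9.68 and 9.28 in control arrays (0.66 ± 0.20, SE, limma adjusted p = 0.373). Junb, an AP-1 subunit, had 10.38, 10.16 and 10.07 in ERaKO arrays, against 9.59, 10.07 and 9.94 in control arrays (0.34 ± 0.14, SE, limma adjusted p = 0.472). Junb stood at 0.20 without control replicate 1, and its unadjusted p stayed under 0.05 only without ERaKO replicate 3 or control replicate 2 among the 6 arrays left out in turn. In these 3 genes control replicate 1 was the lowest and ERaKO replicate 1 the highest array. Named by the same rule on p were 2 matrix genes, Tgfbi, which encodes a collagen-binding protein (0.36 ± 0.10, SE), and Tnc, which encodes tenascin C (0.42 ± 0.10, SE), each with groups apart in every probe set. The groups overlapped for other matrix genes of the list, among them Fn1 at 0.14, Postn at 0.057, Col3a1 at 0.035 and Lox at -0.012. They also overlapped for Col1a1 at -0.052, Col1a2 at -0.095 and the protease inhibitor gene Timp1 at -0.11. Farthest below 0 on the list were Tagln at -0.44, Id1 at -0.41, Snai1 at -0.37 and Acta2 at -0.36, each with overlapping groups. With control replicate 2 left out, 296 of 10916 genes passed, 86 higher and 210 lower. Klf10 (limma adjusted p = 0.0273), Bhlhe40 (0.0376) and Tnc (0.0239) were among the higher ones. Control replicate 2 was the highest control for these 3 genes. Without control replicate 1, Klf10 stood at 0.62 and Bhlhe40 at 0.46 (limma adjusted p = 0.347 for Bhlhe40). Tnc was lowest, at 0.38, without control replicate 3.

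Among 18 latency and activation genes 11 lay above 0 and 7 below. Their median was 0.083, with 0 past the threshold in limma. At an unadjusted p under 0.05, 2 were higher, against 5.85% of all genes, and 0 lower, against 4.69%. Groups were apart for 3 as higher, against 9.23% of all genes, and for 0 as lower, against 7.76%. Ltbp2, which encodes a member of the latent TGF-β binding protein family that does not itself bind the latent complex, is also on the response list and had 8.18, 8.49 and 8.21 in ERaKO arrays, against 6.63, 7.54 and 7.66 in control arrays. The difference of 1.01 ± 0.26 (SE, limma adjusted p = 0.311) was 0.69 without control replicate 1, which lay far below the other controls. Mmp9, a protease of osteoclasts that can release latent TGF-β, had 10.95, 11.25 and 10.09 in ERaKO arrays, against 8.90, 9.34 and 9.42 in control arrays (1.55 ± 0.29, SE, limma adjusted p = 0.203). With the deposited scaling both passed, Ltbp2 at 1.16 (limma adjusted p = 0.0238) and Mmp9 at 1.71 (limma adjusted p = 0.000112). At that scaling the median of all genes was itself 0.14, and the genes that passed were 30 higher and 0 lower.

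Of 9 other receptors 4 lay above 0 and 5 below, and their median was -0.16. At an unadjusted p under 0.05, 0 were higher, against 5.85% of all genes, and 1 lower, against 4.69%. Groups were apart for 0 as higher, against 9.23%, and for 2 as lower, Bambi and Acvrl1, against 7.76%. Bambi, which encodes a pseudoreceptor that dampens TGF-β and BMP signalling, had 10.74, 10.69 and 10.76 in ERaKO arrays, against 11.14, 10.95 and 11.06 in control arrays. All ERaKO arrays lay below all controls, by -0.32 ± 0.08 (SE, limma adjusted p = 0.291). Acvr1b, encoding an activin type I receptor, stood at -0.29 ± 0.16 (SE) with overlapping groups, and its second probe set at 0.38 ± 0.30 (SE). Of 6 secreted inhibitors 3 lay on each side of 0, and their median was 0.016, with 1 higher and 0 lower at an unadjusted p under 0.05. Groups were apart for 1 as higher and for 2 as lower, Fstl3 and Bgn. These counts are to be read against the same shares of all genes. Fmod, which encodes fibromodulin, a collagen-binding proteoglycan that also binds TGF-β, had 12.23, 12.48 and 12.25 in ERaKO arrays, against 11.41, 12.10 and 11.84 in control arrays. Its difference was 0.54 ± 0.17 (SE, limma adjusted p = 0.377), and all 6 of its probe sets had ERaKO means above control, with groups apart in 5. It was 0.35 without control replicate 1, and its unadjusted p was no longer under 0.05 without ERaKO replicate 2. Fstl3, a relative of follistatin that also binds activin, stood at -0.35 ± 0.16 (SE, limma adjusted p = 0.479). Its ERaKO levels of 5.86, 5.71 and 5.49 lay just below control levels of 5.86, 6.16 and 6.09. The first probe set of Fst ran the other way, at 0.34, and the second ran the same way, at -0.15.

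Of 17 Smad mediators and regulators 12 lay above 0 and 5 below. Their median was 0.046. At an unadjusted p under 0.05, 0 were higher, against 5.85% of all genes, and 0 lower, against 4.69%. Groups were apart for 1 as higher, against 9.23%, and for 0 as lower, against 7.76%. Smad7, the inhibitory Smad that TGF-β induces, had 8.02, 7.82 and 7.98 in ERaKO arrays, against 7.74, 7.79 and 7.64 in control arrays, with groups narrowly apart (0.22 ± 0.10, SE, limma adjusted p = 0.507). Smurf1, a ubiquitin ligase that targets receptors and Smads, stood at 0.35 ± 0.15 (SE, limma adjusted p = 0.475) with overlapping groups. Of the other ligand genes only 2 of 8 with a probe set passed the filter. These were Inha, encoding the inhibin alpha chain, at 0.21 ± 0.15, and Lefty1, an antagonist of Nodal, at -0.11 ± 0.15 (SE).

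**Figure D5:**
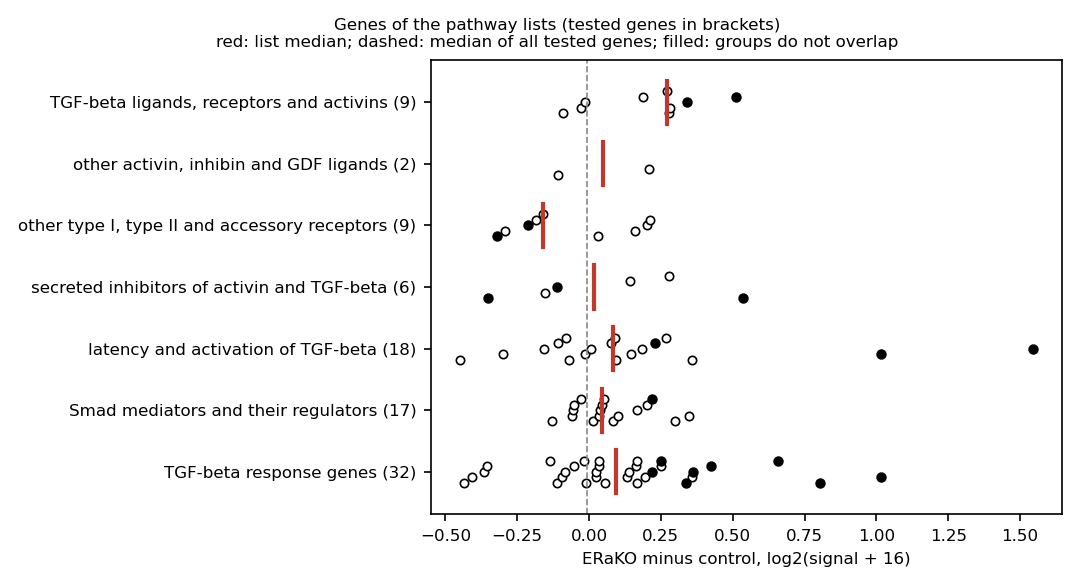
ERaKO minus control on the log2(signal + 16) scale for each tested gene (points) of the members and the 6 pathway lists, with the list median in red and the median of all tested genes dashed; filled points are genes whose groups do not overlap. List medians lie between -0.16 for other receptors and 0.27 for the members, and Mmp9 at 1.55 and Ltbp2 at 1.01 lie farthest right.

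The genes whose levels followed each member most closely over the 6 arrays were listed by Pearson's r, as a description in which all points share the same libraries. With 6 arrays and 10916 genes high values are common: between 40 and 171 genes had r above 0.9 with a given member. Tgfb2 was followed most closely by Cabin1 (0.996), Pdlim7 (0.993) and Tab3 (0.991), and Fst by Kcnk5 (0.990), Scin (0.989) and N4bp2 (0.989). Pdlim7, for example, had 8.29, 8.32 and 8.25 in ERaKO arrays, against 7.999, 7.49 and 7.97 in control arrays. For Tgfb1 the nearest were Tob1 (0.986), Hpse (0.985) and Ppp1r15b (0.983), and for Tgfb3 they were Tcirg1 (0.993), Sun2 (0.991) and Wwp2 (0.981). Tgfbr2 was nearest to Ankrd54 (0.990), Arid1a (0.990) and Igf1 (0.987). Tgfbr1 was nearest to AA388235 (0.984), Ube2h (0.977) and Secisbp2l (0.976), and Tgfbr3 to Ecd (0.993), B4galt5 (0.987) and Swap70 (0.979). Inhba was nearest to Brpf1 (0.981), Zfp131 (0.977) and Trim3 (0.974), and Inhbb to Ikzf4 (0.990), Map4k4 (0.989) and Hdac6 (0.988).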

How the data were processed

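The authors deposited 1 intensity per probe set and array on a linear scale. The submitters' processing notes name GCOS; its version, background correction and scaling are not given in the sources here. Without detection calls, dim probe sets carry no bound. Signals under 16 made up 38.6% to 46.9% of an array, and precision is limited by the number of arrays. From the deposited intensities log2(signal + 16) was computed and quantile normalised. The 64 control probe sets were dropped from 45101, and of the others 34945 named 1 gene, 932 several and 9160 none. Identifiers of 34741 were found in the RefSeq table (GRCm38.p6) and took its symbol and coordinates. Each gene was read by its probe set of highest mean, and the lowest 40% of 18193 genes were left out. A second fit took every probe set with 1 gene or none, filtered likewise, with a limit of 4.82. Values of probe sets under that limit come from an unfiltered fit.

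The groups were compared, ERaKO minus control, in limma 3.58.1 and R 4.3.3 (lmFit, eBayes with a mean-variance trend, 2-sided, Benjamini-Hochberg at 0.05), without covariates, and the steps were tested on simulated data. A list's level is the mean of its tested genes, each centred over the 6 arrays. Named pathway genes were those with an unadjusted p under 0.05, and at least the 2 of smallest p in each list. Each member also took the 3 genes of highest r. Members, lists and rules were chosen with earlier results of these data known. Deviations from the group mean correlated at -0.38, 0.10 and -0.04 for arrays with replicate numbers 1, 2 and 3, and at -0.34 to 0.42 for unlike numbers. These values show no pairing by number and cannot exclude one by litter or batch. No arrays were identical. Scaling, pseudocount, filter, probe set rule, variance model, array weights, replicate block and each array left out were tried as alternatives.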

Additional observations from a re-analysis of the deposited data

How the results depend on the processing

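No member passed an adjusted p of 0.05 under any alternative run. Tgfb2, Tgfb3 and Fst were above 0 in all 16, and Inhbb in the 15 that tested it. With the values as deposited the median of all genes was 0.14, and Inhba, Tgfbr1, Tgfbr3 and Lefty1 turned to 0.13, 0.14, 0.058 and 0.031. At that scaling 30 genes, 30 higher and 0 lower, and 68 probe sets passed, where quantile normalisation gave 0 of each. With a common array median 1 gene and 6 probe sets passed, Inhba and Tgfbr1 stood at 0.029 and 0.043, and 4 members were higher at an unadjusted p under 0.05 in place of 2. With the mean of all probe sets 1 member was, and Tgfb1, Tgfbr2, Tgfbr1 and Acvr1b stood at -0.094, -0.045, 0.025 and 0.043, which the averaging of opposed or dim probe sets gives by construction. The median of the 9 members was 0.42 as deposited and 0.025 when probe sets were averaged. With array weights Inhba was 0.011. Leaving out 1 array gave 0 to 296 genes and 0 to 540 probe sets, both highest without control replicate 2 (86 genes higher, 210 lower), and 1 to 4 members at an unadjusted p under 0.05. It gave -0.16 to 0.13 for Inhba, -0.092 to 0.043 for Tgfbr1 and -0.0010 to 0.18 for the second probe set of Inhbb. The cause of the other shifts was not tested. With a replicate block 0 genes passed and Tgfb2 stood at 0.51 (limma adjusted p = 0.620). The block kept Tgfb2 and Fst at an unadjusted p under 0.05, and of the named pathway genes past that limit only Junb was lost. With the lowest 60% left out Inhba and Inhbb were not tested. Between 38.6% and 46.9% of signals lay under the pseudocount, which limits what dim probe sets can show.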
